A study of Mus musculus with 6 samples.

Results

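A set of 10 transcription factors was examined, here called the naive factors: Nanog, Pou5f1, Sox2, Esrrb, Zfp42, Klf2, Klf4, Klf5, Tfcp2l1 and Tbx3. They were chosen by name, as the factors of the naive pluripotency network, but with earlier results of these data known. They make up 10 of the 39017 genes in the count tables. All 10 were measured, and all 10 passed the filter on low counts in both comparisons. PolyA RNA-Seq of mouse V6.5 embryonic stem cells (mESCs) gave 6 libraries in 3 groups of 2. The untreated group was a Pol II degron line, in which the endogenous RPB1 protein (product of Polr2a, the largest Pol II subunit) carries a C-terminal mAID-GFP tag and a doxycycline-inducible OsTIR1 cassette stands at Rosa26. OsTIR1 is a plant protein that directs mAID fusions to degradation when auxin is present. The auxin group was the same line after 6 h with 500 μM indole-3-acetic acid (IAA, an auxin). Both degron groups had first received 1 μg/ml doxycycline for 12 h, so the inducer is common to them. The third group was wild-type V6.5 without the tag, and its records do not say whether those cells received doxycycline. The degron line is a clone that was picked for efficient degradation. All cells grew in medium with fetal bovine serum and leukaemia inhibitory factor (LIF) on irradiated mouse embryonic fibroblasts. Per the study's methods they were harvested after 2 passages of these feeders.

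Library totals lay between 14094022 and 15358714 counts. The 10 factors together gave 3539 and 4065 CPM (counts per 1000000, after TMM scaling over the 6 libraries) in the untreated libraries, 2770 and 3010 in the auxin libraries, and 4346 and 4306 in the wild-type libraries. All 10, which are defining genes of the labelled cell type, had over 1000 counts in each library. Feeder fibroblast markers were counted too, with a sum over 15 genes of 316 to 330 CPM in untreated, 340 to 382 in auxin and 199 to 200 in wild-type libraries. Acta2 (627 to 2159 counts), Col1a1 (915 to 1380) and Col1a2 (567 to 1413) were the most abundant of them, and Lum, Dcn and Fap had 0 to 4 counts in each library. Retinas appear in the extraction text submitted for wild type, and 11 retina markers summed to 6.84 to 9.73 CPM over the 6 libraries, with Rcvrn and Crx at 0 in each. The messages of the 13 mitochondrial protein genes took 0.341% to 0.441% of counts in the degron libraries and 1.5% to 1.53% in the wild-type libraries, which stand in a separate table. A preparation difference between the tables and a difference between the lines cannot be told apart. The targeted gene, Polr2a, had 6623 and 6568 counts untreated, 10396 and 10663 after auxin, and 6866 and 7129 in wild type. Its messenger RNA was higher after auxin (log2 fold change 0.57, SE 0.07, edgeR adjusted p = 0.00117). Since auxin acts on the RPB1 protein, a message level is no measure of its depletion.

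Naive pluripotency is the state of the epiblast before implantation, which mouse ES cells keep in culture with LIF. Pou5f1 (Oct4) and Sox2 bind DNA next to each other on composite sites, Nanog joins them at many enhancers, and these factors also bind the regulatory DNA of their own genes. Around this core stand factors with overlapping roles in self-renewal, among them Esrrb, the Krüppel-like factors, Tfcp2l1 and Tbx3, several of which lie downstream of LIF and Stat3.

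The promoters of 4 factors are shown because they carry different letters for the binding of the network's own members. The choice also used the outcome, since 3 of these genes fell after auxin while the fourth, Pou5f1, was not called. RefSeq promoters (build GRCm38.p6) matched 8 of the 10 factors with 11 entries. Klf5 and Tbx3 had no entry. Each line gives the 250 bases before a RefSeq transcription start, 5′ to 3′ on the gene's strand. Capitals mark matches, on either strand, to the octamer ATGCAAAT, to the shorter POU core TTGCAT that the octamer can overlap, to TTGCAT and ACAAT 1 base apart (a composite POU-SOX site, which holds the POU core), to the ESRR site TCAAGGTCA and to the KLF site GGGNGTGG.
Nanog, chr6:122707239-122707488, plus strand: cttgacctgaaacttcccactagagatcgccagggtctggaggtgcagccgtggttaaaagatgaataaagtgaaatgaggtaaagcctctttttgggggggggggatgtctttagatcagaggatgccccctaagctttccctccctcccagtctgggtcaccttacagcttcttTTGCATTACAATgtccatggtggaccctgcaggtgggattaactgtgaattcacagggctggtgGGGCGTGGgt
Sox2, chr3:34649745-34649994, plus strand: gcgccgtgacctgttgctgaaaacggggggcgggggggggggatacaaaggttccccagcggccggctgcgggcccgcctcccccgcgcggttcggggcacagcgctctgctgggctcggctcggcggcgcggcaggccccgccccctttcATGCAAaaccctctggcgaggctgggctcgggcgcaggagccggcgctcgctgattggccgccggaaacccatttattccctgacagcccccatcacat
Zfp42, chr8:43307010-43307259, minus strand: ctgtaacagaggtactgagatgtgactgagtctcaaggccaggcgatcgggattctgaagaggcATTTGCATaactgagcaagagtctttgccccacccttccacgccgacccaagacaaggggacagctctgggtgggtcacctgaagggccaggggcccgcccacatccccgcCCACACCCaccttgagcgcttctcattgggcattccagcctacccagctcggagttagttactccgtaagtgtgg
Pou5f1, chr17:35505782-35506031, plus strand: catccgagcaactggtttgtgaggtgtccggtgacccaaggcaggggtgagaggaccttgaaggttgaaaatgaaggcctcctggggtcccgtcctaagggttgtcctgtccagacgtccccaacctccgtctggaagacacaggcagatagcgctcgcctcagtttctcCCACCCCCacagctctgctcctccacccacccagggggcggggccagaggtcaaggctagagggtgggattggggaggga

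The Nanog promoter held the composite site at bases -74 to -63 from the start and a KLF site at -10 to -3. Over the same window, the composite site stood in 10 of 32851 RefSeq promoters (0.0304%) and the KLF site in 15.9%. These 10 include both Nanog entries, whose windows overlap and hold the same composite site. The second Nanog entry held a further KLF site at -52 to -45 from its own start. The Zfp42 promoter held the octamer, present in 1.6% of promoters, at -186 to -179 and a KLF site at -75 to -68. The Sox2 promoter held the POU core, present in 9.45% of promoters, at -99 to -94. The Pou5f1 window held a KLF site at -80 to -73 and none of the POU letters. The ESRR letters, found in 0.387% of promoters, were in none of the 11 windows. Of the other entries, 1 of the 2 for Esrrb held the POU core, and Tfcp2l1 held 2 KLF sites at -61 to -54 and -47 to -40 and a TATAAA box, a motif found in 12.4% of promoters. GGGCGG boxes, in 32.7% of promoters, were found in the Pou5f1, Sox2, Zfp42, Klf2 and Klf4 windows. The Klf2 and Klf4 windows held none of the marked letters. Klf2 was also called lower after auxin, and Klf4 was not called. ACAAT alone, in 27.7%, was also found once in the Esrrb and once in the second Pou5f1 entry. A match is a run of letters and not evidence of binding, and a relation between these letters and the response to auxin was not tested.

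In the mm10 genome the factors lie on 9 chromosomes. Single genes stand at chr6:122707489-122714633 (Nanog, 4 exons), chr17:35506018-35510772 (Pou5f1, 5 exons), chr3:34650405-34652461 (Sox2, 1 exon) and chr12:86361117-86521628 (Esrrb, 7 exons), all on the plus strand. Zfp42 (chr8:43295063-43306980, minus strand, 5 exons) and Klf2 (chr8:72319033-72321656, plus strand, 3 exons) share a chromosome. The others are Klf4 (chr4:55527143-55532466, minus strand, 5 exons), Klf5 (chr14:99298691-99315036, plus strand, 4 exons), Tfcp2l1 (chr1:118627945-118685168, plus strand, 15 exons) and Tbx3 (chr5:119670669-119684724, plus strand, 7 exons). Sox2 lies within the noncoding gene Sox2ot on the same strand, which had 13 to 38 counts a library. Pou5f1 shares 5.26% of its 100-base exon windows with other genes (the opposite-strand Gm19553, with 0 to 1 counts), Zfp42 shares 2.23% (Zfp42-ps1), Nanog 0.458% (Nanog-ps1), Tfcp2l1 0.332% and Tbx3 0.253%, and the other 5 factors share none. The sources used here do not say whether counting used strand, so in the shared windows of Pou5f1 and Tbx3 reads cannot be told apart from those of the opposite-strand genes Gm19553 and Tbx3os1, and the windows of Tfcp2l1 are shared with Gm23497 on its own strand, which had 0 counts.

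Levels between genes were compared per kb of exon. In untreated cells Pou5f1 was the highest factor, with a mean of 359 CPM per kb. Zfp42 (207), Sox2 (200) and Nanog (199 CPM per kb) followed, and each of these overlapped its neighbour in the order, so that their order is not settled. Klf2 stood at 160 and Esrrb at 116 CPM per kb, and the lower 4 were Klf4 (43.6), Tbx3 (36.4), Tfcp2l1 (27.1) and Klf5 (23.3 CPM per kb), each apart from the next. Among 15952 genes ranked per length in untreated cells, Pou5f1 was 118th, Zfp42 196th, Sox2 213th, Nanog 214th and Klf5, the lowest factor, 2403rd.

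After auxin Pou5f1 remained first at 375 CPM per kb, with Nanog (131), Zfp42 (130), Sox2 (115) and Klf2 (111 CPM per kb) next. Nanog and Zfp42 overlapped, as did Sox2 and Klf2. In wild type Pou5f1 (366) and Sox2 (363 CPM per kb) overlapped at the top, Nanog stood at 275, and Klf4 (81.5) stood above Klf2 (71.8 CPM per kb), the reverse of their order in untreated cells.

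**Figure D1:**
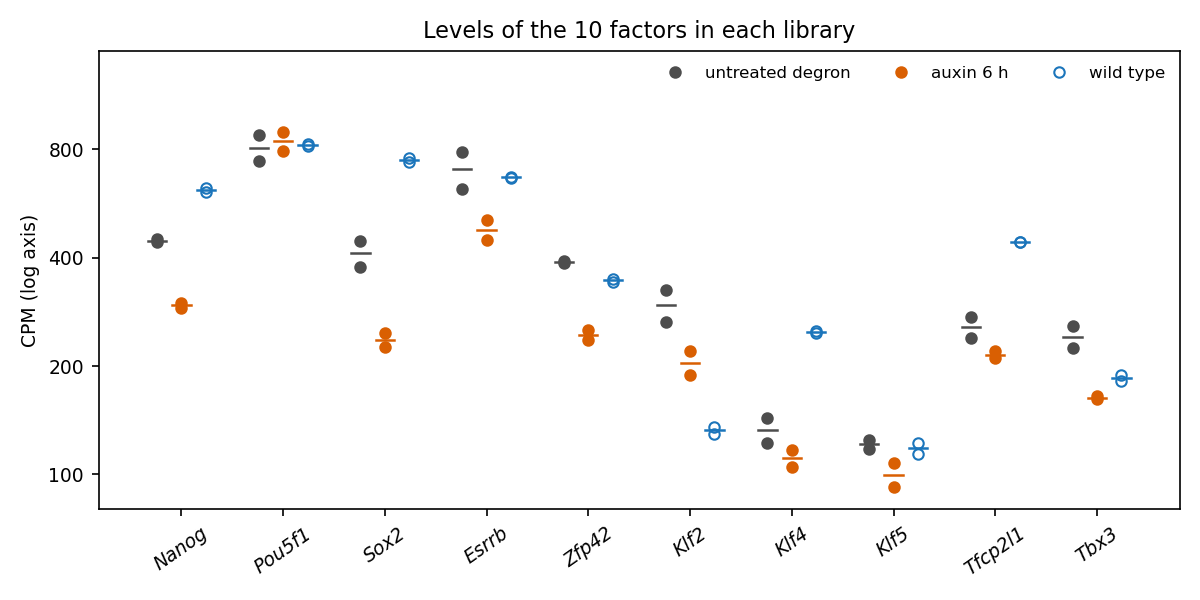
Level of each naive factor in each library, in CPM after TMM scaling over the 6 libraries, on a log axis; points are libraries and short bars are means of 2 libraries. Heights are not comparable between genes, since CPM is not divided by gene length. Both auxin points lie below both untreated points for 9 factors, and for Pou5f1 they overlap.

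The comparison of auxin with untreated cells asks how far the messages of the naive factors changed within 6 h of auxin, which directs RPB1 to degradation. No library is labelled as untagged cells given auxin, so an effect of auxin itself and the loss of Pol II cannot be told apart. Sox2, Zfp42, Nanog, Tbx3, Esrrb and Klf2 fell. At the ends of the range, Sox2 fell by 41.7% and Klf2 fell by 29.9%. Tfcp2l1, Klf4 and Klf5 had smaller differences that did not pass the test, and Pou5f1 had the smallest. So 6 of 10 factors were lower at an adjusted p under 0.05 (edgeR quasi-likelihood test), where 1.64% of the 16128 genes tested were lower and 2.56% were higher. None of the 10 was higher, none at an unadjusted p under 0.05, and none by DESeq2. Among the 3595 genes with a mean of 1000 counts or more, the range in which the 10 factors lie, 3.5% were lower. For 9 of 10 factors both auxin libraries lay below both untreated libraries, which held for 28.4% of all genes tested. The median log2 fold change of the 10 was -0.53, and that of all genes was -0.00038. None of the 10 passed a log2 fold change of 1. These are shares of the library, and a fall common to all messages would not show in them. In whole cultures, fewer cells of a type and less RNA per cell cannot be told apart.

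Pou5f1 encodes the POU homeodomain factor Oct4, without which ES cells leave the pluripotent state. Its level was 741 and 874 CPM in untreated libraries and 792 and 894 CPM after auxin. The ranges overlapped, and the log2 fold change was 0.08 with a 95% interval of -0.12 to 0.28 (edgeR adjusted p = 0.689). An increase or a decrease larger than these bounds is outside the interval.

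Sox2, the HMG-box partner of Oct4, had 376 and 445 CPM untreated and 226 and 246 CPM after auxin, with no overlap. It had the largest fold difference of the 10 (log2 fold change -0.78, SE 0.09, edgeR adjusted p = 0.000482). Nanog, a homeodomain factor that holds ES cells in self-renewal, had 442 and 449 CPM untreated and 299 and 290 CPM after auxin. Its fall was 0.58 on the log2 scale, with a 95% interval of -0.73 to -0.43 (edgeR adjusted p = 0.00092). The untreated libraries of Nanog differed by a ratio of 1.02 and those of Sox2 by 1.18, so both differences were larger than the spread between replicates. By p-value, Zfp42, Sox2 and Nanog ranked 17th, 19th and 22nd among all genes tested.

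Esrrb is an orphan nuclear receptor that can stand in for Nanog in self-renewal. Its untreated libraries were the most spread of the 10, at 619 and 786 CPM, and the auxin libraries had 448 and 507 CPM. The groups did not overlap, and the log2 fold change was -0.54 (SE 0.10, edgeR adjusted p = 0.0129). This call was lost in DESeq2 (adjusted p = 0.175), with no filter on low counts (edgeR adjusted p = 0.117), without auxin replicate 1 (-0.46, edgeR adjusted p = 0.187) and without auxin replicate 2 (-0.63, edgeR adjusted p = 0.0634). Zfp42 (Rex1), a YY1-related zinc finger protein widely used as a marker of the naive state, had 392 and 387 CPM untreated and 237 and 252 CPM after auxin. It had the smallest p of the 10 factors, with a log2 fold change of -0.65 (SE 0.07, edgeR adjusted p = 0.000326).

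The Krüppel-like factors Klf2, Klf4 and Klf5 are zinc finger proteins that can replace each other in part in ES cells. Klf2 had 266 and 325 CPM untreated and 189 and 220 CPM after auxin, and fell by 0.51 on the log2 scale (SE 0.10, edgeR adjusted p = 0.0116). Without auxin replicate 1 its value was -0.41 and the call was lost (edgeR adjusted p = 0.158), as it was with no filter on low counts (edgeR adjusted p = 0.117). Klf4, a direct target of LIF and Stat3, had 123 and 143 CPM untreated and 105 and 117 CPM after auxin, and Klf5 had 118 and 125 against 92.2 and 108 CPM. Neither passed the test, with log2 fold changes of -0.24 for Klf4 (95% interval -0.42 to -0.06, edgeR adjusted p = 0.126) and -0.26 for Klf5 (95% interval -0.43 to -0.09, edgeR adjusted p = 0.0817). Whether the 3 factors differed from each other in their response was not tested.

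Tfcp2l1, a grainyhead-family factor that acts below LIF and Stat3, had 239 and 273 CPM untreated and 220 and 211 CPM after auxin. Its libraries did not overlap, yet the difference of -0.23 on the log2 scale did not pass (95% interval -0.40 to -0.07, edgeR adjusted p = 0.109). Without untreated replicate 1 the values of Klf4, Klf5 and Tfcp2l1 were -0.35, -0.31 and -0.33. Without untreated replicate 2 they were -0.13, -0.22 and -0.14. Pou5f1 stood at -0.04 without untreated replicate 1 and at 0.20 without untreated replicate 2. Such a fit leaves 1 untreated library and takes its spread from the auxin libraries, so its calls are not given. Tbx3, a T-box factor that acts on the branch of LIF signalling through PI3K, had 224 and 258 CPM untreated and 162 and 165 CPM after auxin. It fell by 0.54 on the log2 scale (SE 0.08, edgeR adjusted p = 0.0027), a call that was lost with no filter on low counts (-0.56, edgeR adjusted p = 0.0538).

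**Figure D2:**
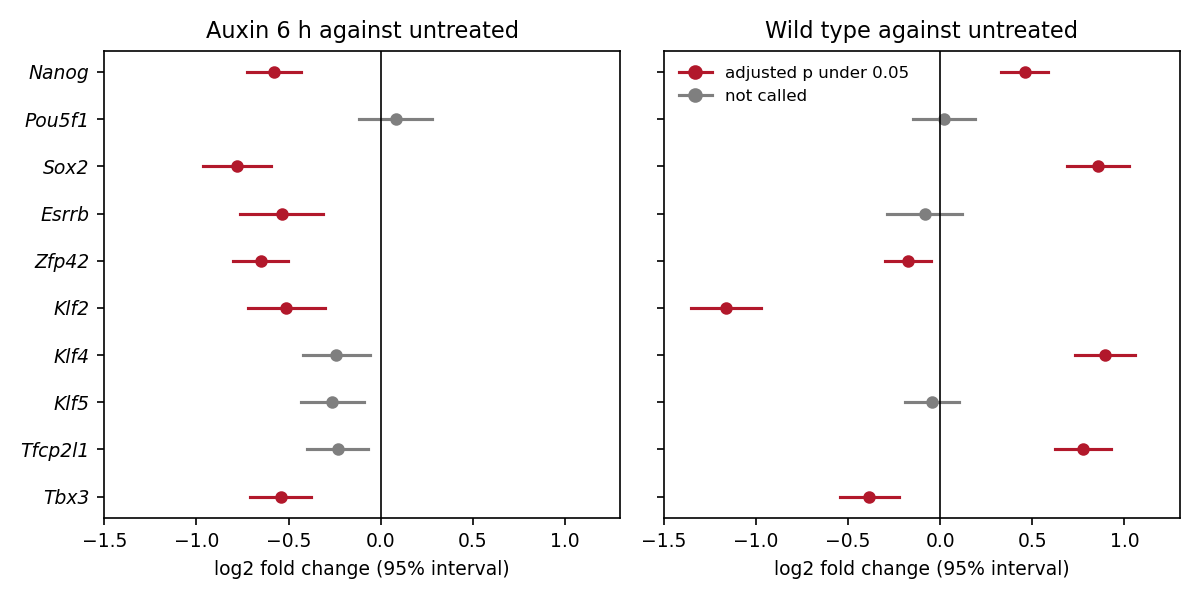
Log2 fold changes of the 10 factors with their 95% intervals, auxin against untreated on the left and wild type against untreated on the right, from edgeR fits of 4 libraries each; red marks an adjusted p under 0.05. On the left 6 factors are called, all lower; on the right 4 are called higher and 3 lower, with directions relative to the TMM scale (under mitochondrial scaling all 10 are lower).

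**Figure D3:**
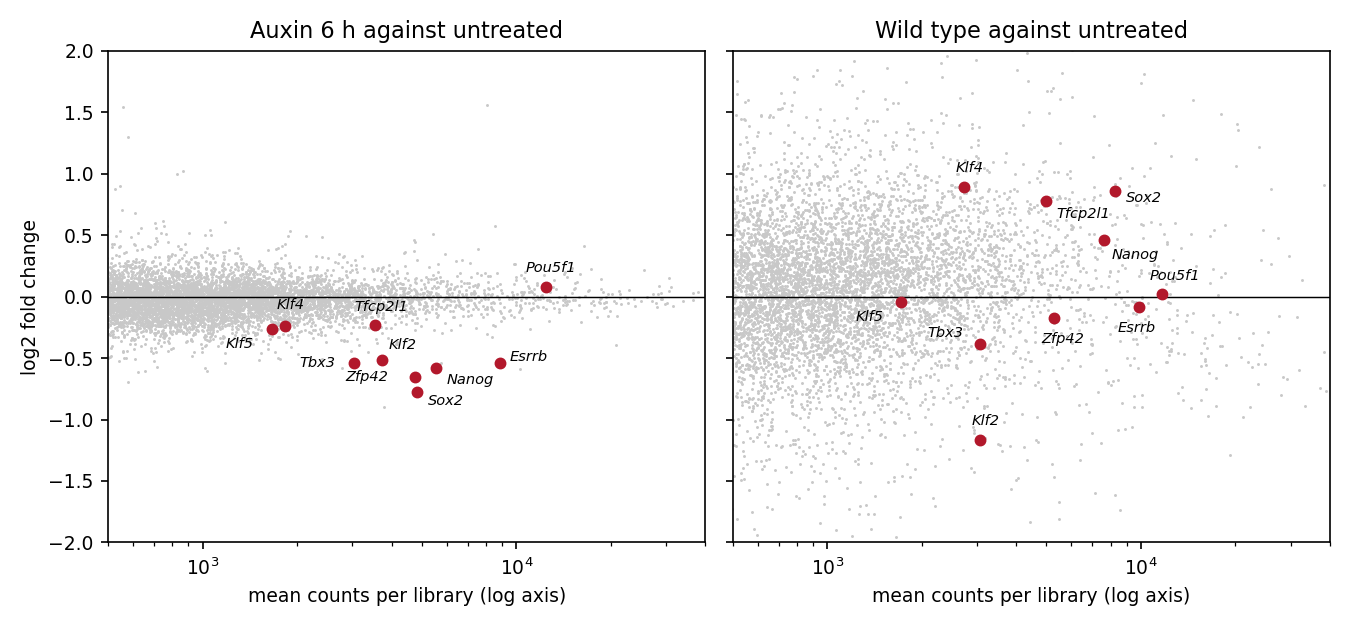
Log2 fold change against mean counts per library for all genes inside the axes (6226 of 16128 tested on the left, 6136 of 15778 on the right), with the 10 factors in red. After auxin most genes of similar count lie near 0 and the called factors lie from -0.51 to -0.78; in the wild-type comparison the factors lie within the wide spread of the other genes.

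Each factor was also set against Pou5f1 in its own library, a ratio in which the library's scaling cancels. Pou5f1 was taken as the factor with the smallest difference, and a change of Pou5f1 itself would move all 9 ratios together, so that they are a description and no independent support. For each 100 counts of Pou5f1, Sox2 had 50.7 and 51.0 counts untreated and 28.5 and 27.5 after auxin. Nanog had 59.6 and 51.4 against 37.7 and 32.5, Esrrb 83.5 and 90.0 against 56.6 and 56.7, and Zfp42 52.8 and 44.3 against 29.9 and 28.2 counts per 100 of Pou5f1. For all 9 other factors both auxin libraries lay below both untreated libraries on this scale. The share of all genes for which this holds was counted on the TMM scale (28.4%) and not on this one. The untreated spread of Sox2, Klf4, Tbx3, Klf2 and Tfcp2l1 was small on this scale, at 16.5 and 16.4 for Klf4, 30.2 and 29.5 for Tbx3, 35.8 and 37.2 for Klf2 and 32.2 and 31.3 for Tfcp2l1. After auxin these became 13.3 and 13.1 for Klf4, 20.5 and 18.4 for Tbx3, 23.9 and 24.6 for Klf2, and 27.8 and 23.5 for Tfcp2l1. Klf5 had 15.9 and 14.3 counts untreated and 11.6 and 12.0 after auxin. For Nanog, Zfp42 and Klf5 the untreated libraries lay further apart on this scale than in CPM. Their CPM ratios of untreated replicate 2 to replicate 1 were 1.02, 0.988 and 1.06.

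**Figure D4:**
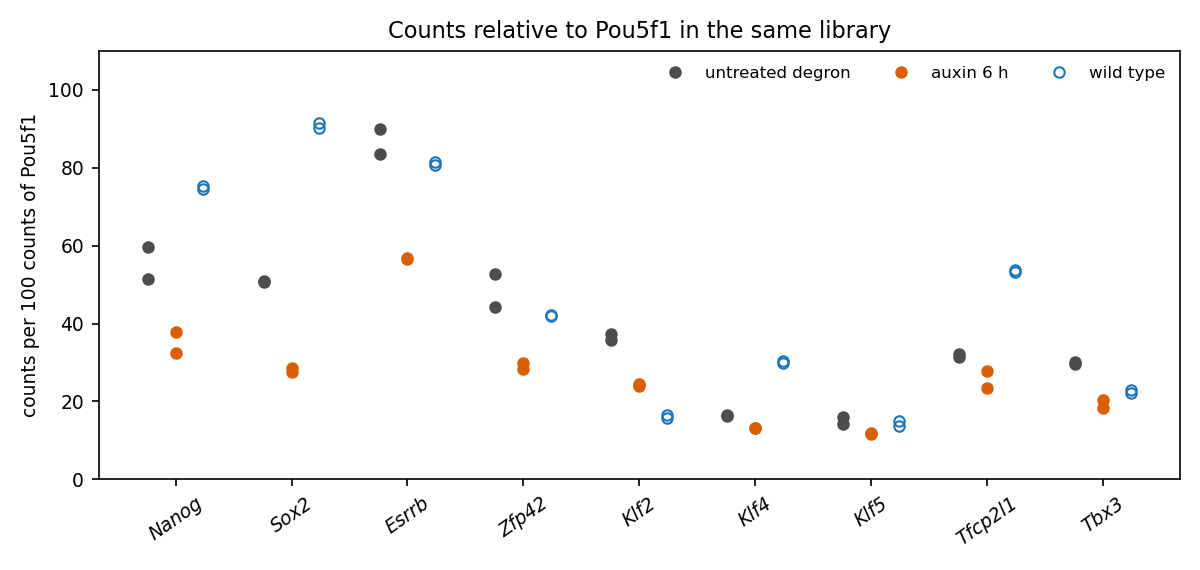
Counts of each factor for every 100 counts of Pou5f1 in the same library, so that the library's scaling cancels and a change of Pou5f1 would move all 9 together. For all 9 factors the auxin points lie below the untreated points, a separation that was not counted over all genes on this scale. Wild-type points lie above both for Nanog, Sox2, Klf4 and Tfcp2l1.

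The comparison of wild-type with untreated degron cells shows how the naive factors differ between wild-type V6.5 and the tagged line before auxin. The tag, the OsTIR1 cassette, clone selection, doxycycline (not stated for wild type) and the separate tables cannot be told apart in it. Klf4, Sox2, Tfcp2l1 and Nanog were higher in wild type and Klf2, Tbx3 and Zfp42 lower, while Pou5f1, Esrrb and Klf5 were not called; scaled to mitochondrial messages all 10 were lower. That scaling moved the median of all genes by -2.10 on the log2 scale (-0.17 in the auxin comparison), and relative to this median Sox2 stood at 0.87, Klf4 at 0.91, Tfcp2l1 at 0.79, Nanog at 0.47 and Klf2 at -1.14. The 7 calls among 10 have to be read against the background, in which 29.9% of the 15778 genes tested were higher and 30.7% lower. Among the 3604 genes with a mean of 1000 counts or more, 46.4% were higher and 27.9% lower. The median log2 fold change of the 10 was -0.01, as was that of all genes.

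On the TMM scale Sox2 had 757 and 738 CPM in wild type, above both untreated libraries (log2 fold change 0.86, SE 0.08, edgeR adjusted p = 2.87e-06). Klf4 had 247 and 250 CPM, a log2 fold change of 0.89 (SE 0.07, edgeR adjusted p = 1.49e-06). Tfcp2l1 had 441 and 441 CPM (log2 fold change 0.78, SE 0.07, edgeR adjusted p = 2.71e-06), and Nanog 623 and 609 CPM (0.46, SE 0.06, edgeR adjusted p = 3.74e-05). On this scale these 4 were 37.5% (Nanog) to 85.9% (Klf4) above untreated cells.

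Klf2 showed the largest difference of the 10, and the only one past a log2 fold change of 1. It had 130 and 135 CPM in wild type, below both untreated libraries (log2 fold change -1.16, SE 0.09, edgeR adjusted p = 6.35e-07). It was also the only factor whose auxin libraries (189 and 220 CPM) stood above the wild-type libraries, while 8 factors stood below them and Pou5f1 overlapped. The share of all genes that separate between auxin and wild-type libraries was not counted, so these counts describe the 10 factors only. Tbx3 had 189 and 182 CPM (log2 fold change -0.38, SE 0.07, edgeR adjusted p = 0.000771). Zfp42 had 350 and 343 CPM (-0.18, SE 0.06, edgeR adjusted p = 0.0188), a call that was lost without wild-type replicate 1 (-0.18, edgeR adjusted p = 0.223) or wild-type replicate 2 (-0.16, edgeR adjusted p = 0.302).

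Pou5f1 had 828 and 819 CPM in wild type, between the untreated libraries (95% interval of the log2 fold change -0.15 to 0.19). Esrrb had 667 and 667 CPM, also between them (95% interval -0.29 to 0.12), and Klf5 had 114 and 122 CPM (95% interval -0.19 to 0.10). The direction of Esrrb and Pou5f1 rests on which untreated library is used. Without untreated replicate 1 they stood at -0.25 and -0.09, and without untreated replicate 2 at 0.10 and 0.14. Such a fit leaves 1 untreated library and takes its spread from the wild-type libraries, so its calls are not given.

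Genes of the same circuitry were then counted in 4 lists, beside the fibroblast and retina markers. Of 20 other ES cell genes, all were tested in the auxin comparison, with 1 higher, 2 lower and a median log2 fold change of -0.15. Lower were Sall4 (-0.50, edgeR adjusted p = 0.00813), a zinc finger partner of Oct4 and Nanog, and Dppa3 (-0.46, edgeR adjusted p = 0.0442), a maternal factor that guards DNA methylation in the early embryo. Higher was Zfp296 (0.66, edgeR adjusted p = 0.00904), a zinc finger protein of ES cells. Thus 17 of the 20 were not called, and the median of the 20 lay nearer to 0 than that of the 10 factors. Of the 20, 18 had a negative log2 fold change, as did 8076 of all 16128 genes tested. A lean to lower values was thus not particular to the 10 factors. At an unadjusted p under 0.05 in edgeR 1 of the 20 was higher and 8 were lower, and DESeq2 called 1 higher and 2 lower. The share of all genes at that unadjusted threshold was not counted. The adjusted calls of this list and of the next ones after auxin stand beside 1.64% lower and 2.56% higher over all genes tested.

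The LIF and Stat3 pathway list held 11 genes, of which none was higher, 2 were lower and 9 were not called (median -0.11). At an unadjusted p under 0.05 in edgeR 1 gene was higher and 5 were lower, and DESeq2 called 0 higher and 2 lower. The 2 lower genes were the kinases Pim1 (-0.39, edgeR adjusted p = 0.00768) and Pim3 (-0.35, edgeR adjusted p = 0.0388), both known targets of Stat3. Lif, Lifr, Il6st, Jak1, Jak2, Stat3 and Socs3, which are the ligand, its receptors, the kinases, the factor itself and its inhibitor, were not called. Of these, Lif (0.27), Stat3 (-0.17) and Socs3 (-0.21) had an unadjusted p under 0.05, with edgeR adjusted p = 0.157, 0.189 and 0.146.

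The formative and lineage list, with genes that rise when cells leave the naive state, had 13 of its 16 genes tested. None was called (edgeR), with 2 higher and 0 lower at an unadjusted p under 0.05, and none in DESeq2. Their median log2 fold change was 0.16. Among 21 tested relatives of the 10 factors (other Klf, Sox, Pou, Esrr, Tbx, Yy and grainyhead family genes), 1 was lower and 0 were higher. The lower gene was Klf11 (-0.38, edgeR adjusted p = 0.0187). At an unadjusted p under 0.05 in edgeR 3 relatives were higher and 4 lower, and DESeq2 called 0 in either direction. Of the 21 relatives 16 had a negative log2 fold change, beside 8076 of all 16128 genes tested, with a median of -0.13. Of 12 tested fibroblast markers, Col1a2 was higher (0.36, edgeR adjusted p = 0.0224) and none lower, with a median of 0.17. At an unadjusted p under 0.05 in edgeR 2 fibroblast markers were higher and 0 lower, and DESeq2 called 0 in either direction, so that the call of Col1a2 was lost there. Retina markers passed the filter in 4 of 11 cases and none was called (edgeR, 1 at an unadjusted p under 0.05, 0 by DESeq2). The part of the fibroblast sums in the factors' values was not tested.

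**Figure D5:**
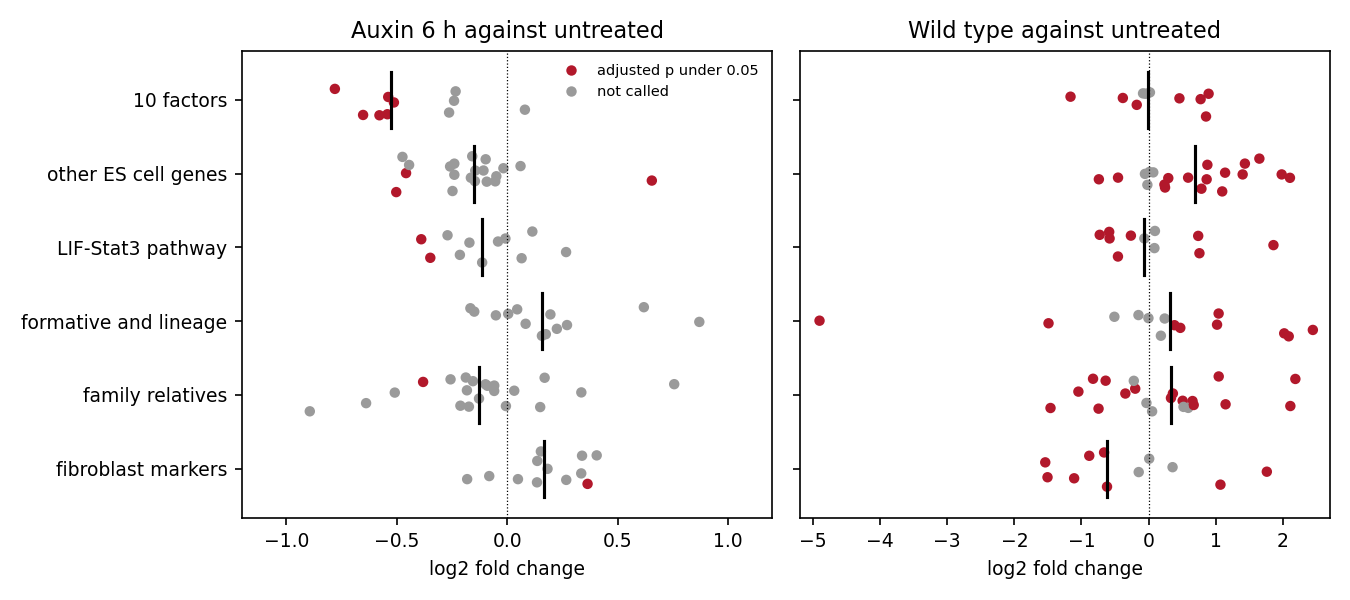
Log2 fold changes of the tested genes of the 10 factors and of 5 other lists in both comparisons, with the axes on different scales; each point is a gene, vertical bars are list medians, and red marks an adjusted p under 0.05 (edgeR). After auxin the median of the 10 factors is -0.53 and the medians of the other lists lie between -0.15 and 0.17; the right panel is on the TMM scale.

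In the wild-type comparison, on the TMM scale, 14 of the 20 other ES cell genes were higher and 2 lower, with a median log2 fold change of 0.69. These counts and those of the lists that follow stand beside shares of 29.9% higher and 30.7% lower over all genes tested. The smallest p-values belonged to L1td1 (1.98), an RNA-binding protein, Tdgf1 (1.14), a Nodal co-receptor, Utf1 (1.10), a chromatin factor, and Zfp296 (1.65). Fbxo15 (-0.74), an F-box protein, and Nr0b1 (-0.46), the nuclear receptor Dax1, were the 2 lower genes. In the LIF and Stat3 list 3 were higher and 5 lower, with the receptor Lifr at 1.86, the inhibitors Socs3 at 0.74 and Pias3 at 0.76, and Stat3 (-0.58), Jak2 (-0.73), Pim1 (-0.46) and Lif (-0.59) among the lower genes. The median of this list was -0.06.

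Of 14 tested formative and lineage genes, 7 were higher in wild type and 2 lower (median 0.31). Otx2, a formative factor, had 23 and 32 counts untreated and 141 and 158 in wild type, and the endoderm gene Sox17 had 9 and 24 against 79 and 61. The de novo methyltransferase Dnmt3b (0.47) and Eomes (1.02) were also higher. The mesoderm gene T (brachyury) had 163 and 267 counts untreated and 6 and 8 in wild type, and Sall2 was lower (-1.49). Among 21 tested relatives 9 were higher and 7 lower (median 0.33), with Klf13 (1.05), Sox1 (2.19), Sox15 (1.15) and Pou2f1 (0.65) higher and Klf9 (-0.75), Klf15 (-1.46), Klf7 (-0.83) and Klf6 (-0.35) lower. Of 11 tested fibroblast markers 2 were higher and 6 lower (median -0.62), and of 3 tested retina markers 2 were higher and 1 lower. Under mitochondrial scaling the higher directions of these lists are moved with the median of all genes by -2.10.

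The genes whose levels ran closest to 3 core factors over the 6 libraries were searched among 10969 genes with at least 100 counts on average, by the Euclidean distance of log2(CPM + 1) after each gene's mean was subtracted. For Pou5f1 these were Phka1 (distance 0.0667), Psmb3 (0.0731) and Rnf157 (0.0791). For Nanog they were Eif4a2 (0.101), Nfrkb (0.143) and Zfp459 (0.171), and Eif4a2 had 11815 and 12067 counts untreated, 9026 and 8057 after auxin and 16542 and 17171 in wild type. For Sox2 they were Sall4 (0.317), Gm2373 (0.350) and Gli2 (0.373), and Sall4 had 1765 and 2175 counts untreated, 1458 and 1529 after auxin, and 3635 and 3539 in wild type. Within the 10 factors the closest pairs were Klf4 and Tfcp2l1 (0.210) and Esrrb and Zfp42 (0.295). The 6 libraries share their untreated samples and scaling, and the distances are a description only.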

How the data were processed

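PolyA RNA-Seq reads were aligned by the authors to mm10 with hisat2 (version 2.1.0 per the submitters' processing notes) and counted per GENCODE gene with salmon and htseq-count. The annotation release and strand setting are not given in the sources used here. The authors deposited raw counts, in a table of the 4 degron libraries and another of the 2 wild-type libraries. A further 2 columns, of no sample here, and the authors' own comparison columns (group means, fold changes, p-values) were not used. Tables were joined by gene identifier.

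Each comparison was fitted on its own 4 libraries with edgeR 4.0.16 in R 4.3.3 (glmQLFit, glmQLFTest, TMM, filterByExpr with a minimum count of 10), with Benjamini-Hochberg adjustment over all genes tested and a call at 0.05. The SE was taken from the fold change and its F statistic. Both comparisons share the untreated libraries. CPM are counts per 1000000 after TMM over 6 libraries, and exon lengths are from GENCODE vM21. No spike-in was named. The study describes its sequencing replicates in general as biological, and the labels do not say whether they were separate cultures, so p-values measure only the spread between these samples. The procedure was tested on simulated data.

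The members and gene lists were chosen with earlier results of these data known. Named were the 10 factors, Polr2a, from each list up to 4 called genes of smallest p per direction, any further gene needed to account for a list, and the 3 genes nearest to Nanog, Pou5f1 and Sox2. Exceptions, chosen after their values were seen, are the fibroblast and retina genes named as markers. Alternatives were DESeq2 1.42.0, other scalings and filters, all 3 groups in one fit, a replicate block, a prior count of 5 and each library left out.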

Additional observations from a re-analysis of the deposited data

How the results depend on the processing

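Of the 6 factors called lower after auxin, 5 were called by DESeq2 and 6 with its size factors, with library totals, with mitochondrial scaling or with at least 10 counts in every library. Without a filter on low counts 3 were called (all genes, 43 higher and 12 lower against 413 and 264), with edgeR adjusted p = 0.117 for Esrrb, 0.117 for Klf2 and 0.0538 for Tbx3, and the cause was not tested. All 3 groups in one fit called 9, all lower (all genes, 567 higher and 668 lower). With each library left out in turn, every factor but Pou5f1 kept a negative value. Leaving out an auxin library lost calls of Esrrb and Klf2, as given above. DESeq2 called 128 genes higher and 108 lower, and mitochondrial scaling 167 and 52.

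Samples that share a replicate number correlated at 0.123 in their deviations in the auxin comparison and at -0.06 in the wild-type comparison, with only 2 pairs each, so the numbers were not taken as pairs. With the replicate number as a block, 9 factors were called lower after auxin (adding Klf4, Klf5 and Tfcp2l1, edgeR adjusted p = 0.00683, 0.00215 and 0.00958; all genes 1081 higher and 849 lower), and 7 were called in wild type, as without it.

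In wild type the count was 7 under each alternative that kept every library, except mitochondrial scaling (10, all lower, with 73 higher and 15235 lower over all genes). That scaling turned Nanog to -1.64, Pou5f1 to -2.07, Sox2 to -1.23, Klf4 to -1.19 and Tfcp2l1 to -1.31 on the log2 scale, and turned Pou5f1 to -0.082 after auxin. Library totals turned Pou5f1 to -0.036 in wild type. With libraries left out, Pou5f1 ranged from -0.038 (without untreated replicate 1) through -0.0076 (without auxin replicate 2) to 0.20 after auxin, and from -0.094 to 0.14 in wild type, Esrrb in wild type from -0.25 to 0.10 and Klf5 from -0.086 to 0.012. Dropping a library leaves 1 in its group, which is assumed to vary like the other group. A prior count of 5 changed no direction. The 10 factors have over 1000 counts in each library, and the number of 2 libraries per group limits the precision.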
